A study of Mus musculus with 6 samples.

Results

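The muscleblind-like gene Mbnl1 and 9 further genes lie on mouse chromosome 3 within 1 Mb of the pseudogene Gm33707, and their reads were followed in splenic CD4+ T cells. The 10 genes are Sucnr1, Tgif1-ps, Mbnl1, Gm37589, Gm37488, Gm33707, Gm38326, Gm8325, P2ry1 and Rap2b, in chromosome order, out of 54532 rows of the deposited table. They were taken by symbol, from a region noticed for its difference between the genotypes. They were thus chosen by their reads per library in the contrast described here, and their values are given as a description with no test. Within the same 1 Mb lie 17 further rows, of which 13 had no read in any library.

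The cells came from C57BL/6 mice with experimental autoimmune encephalomyelitis (EAE), in which immunisation against myelin leads T cells to attack the brain and spinal cord, at its acute phase. RNA was sequenced from 3 control mice, labelled wild type, and from 3 Ogt-KD mice, labelled Ogtfl/wt CD4-Cre. The latter thus have 1 floxed and 1 intact copy of Ogt, the X-linked gene of O-GlcNAc transferase, and a Cre recombinase under Cd4 control, which is active in T cells and in the thymic precursors they come from. No Cre or floxed allele is named for the controls, so an effect of Ogt, of the Cre transgene or of DNA linked to either cannot be told apart. Age and sex are not given in the labels.

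MBNL1 is an RNA-binding protein that recognises short sequence elements in pre-mRNA and sets alternative exons, and its loss of function through sequestration is the central event of myotonic dystrophy. In blood and immune cells it is one of the abundant splicing regulators, and its own exons are alternatively spliced. The genes on either side have unrelated roles. P2RY1 and SUCNR1 are cell-surface receptors for nucleotides and for succinate, RAP2B is a small GTPase of the RAS superfamily, and Gm37589 and Gm37488 are unclassified transcripts inside Mbnl1 introns. Gm33707, Gm8325 and Tgif1-ps are processed pseudogenes, DNA copies of spliced messenger RNAs that retrotransposition put back into the genome. A processed pseudogene usually comes without the promoter of its parent gene.

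The parents of the 3 pseudogenes were found by aligning their GENCODE M21 transcript sequences to all other transcripts of that release. Gm33707 aligned to Eno1, which encodes the glycolytic enzyme alpha-enolase, with 89.2% identity over 576 aligned bases, 54 mismatches and 8 gap bases. The related Eno1b had the same identity and another pseudogene, Gm4735, 89.5%. Only protein-coding genes were considered as parents. Of Eno1 and Eno1b, which aligned equally well, Eno1 is taken as the parent because it had more reads. The first 150 bases of Gm33707 (chr3:60770306-60770455 on GRCm38, minus strand) are shown with bases 1009 to 1158 of the Eno1 transcript, because this pseudogene has the largest difference between the groups and its reads have to be told from those of Eno1. Capitals mark the 8 positions at which the sequences differ.
Gm33707: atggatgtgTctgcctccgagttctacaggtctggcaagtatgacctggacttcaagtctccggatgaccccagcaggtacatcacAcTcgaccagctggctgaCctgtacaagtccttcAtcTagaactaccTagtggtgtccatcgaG
Eno1: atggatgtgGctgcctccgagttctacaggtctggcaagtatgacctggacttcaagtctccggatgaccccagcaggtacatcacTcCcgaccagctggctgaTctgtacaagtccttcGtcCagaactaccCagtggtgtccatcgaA

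Gm8325 is a copy of Ube2v1, which encodes a ubiquitin-conjugating enzyme variant, with 97.6% identity over 453 bases, 2 mismatches and 9 gap bases. Over the stretch shown, bases 33 to 122 of Gm8325 and 158 to 247 of Ube2v1 do not differ at any position. It is shown because a read from it cannot be placed by its sequence alone.
Gm8325: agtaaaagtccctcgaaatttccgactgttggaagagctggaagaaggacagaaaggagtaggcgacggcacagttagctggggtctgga
Ube2v1: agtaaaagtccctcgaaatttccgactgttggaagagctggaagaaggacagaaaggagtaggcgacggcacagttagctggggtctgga

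Tgif1-ps is the most diverged of the 3 copies. It aligned to Tgif1, a homeobox gene of a transcriptional repressor, with 74.8% identity over 781 aligned positions, 135 mismatches and 62 gap bases. In the 90 bases shown (chr3:60342798-60342887, minus strand), capitals mark 12 differences from bases 420 to 509 of Tgif1.
Tgif1-ps: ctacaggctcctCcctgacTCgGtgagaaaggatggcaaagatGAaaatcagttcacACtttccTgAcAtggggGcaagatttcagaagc
Tgif1: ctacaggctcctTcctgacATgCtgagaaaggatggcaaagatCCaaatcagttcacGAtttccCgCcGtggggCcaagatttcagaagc

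How far a read could be told from other genes was counted as the share of a gene's stretches of 28, 50 or 100 bases that occur in the transcript of another gene. For Gm33707 the shares were 22.1%, 11.5% and 0%. For Gm8325 they were 84.3%, 75.2% and 56.7%, so its reads are uncertain against those of Ube2v1 and its other copies. For Gm38326, Tgif1-ps and Sucnr1 all 3 shares were 0%, and for Mbnl1 they were 0.598%, 0.108% and 0%. Rap2b shared 56.2% of its 100-base stretches with 2 genes on the opposite strand, and P2ry1 20.8% with 1 such gene. The strand setting of the authors' counting is not given in the sources used here, so reads of Rap2b and P2ry1 cannot be told from those of their antisense genes by these counts.

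Total counts ran from 18127031 to 25683453 per library. Ogt, the targeted gene, stood at 599, 628 and 562 CPM (read counts scaled to library size with TMM factors) in control replicates 1, 2 and 3 and at 662, 599 and 459 CPM in the Ogt-KD replicates. These gene counts also take in exons outside a floxed segment and so do not measure the deletion. All 12 markers of CD4+ T cells had reads in every library, with a summed level of 5841 to 6359 CPM in the controls and 5355 to 5989 CPM in the Ogt-KD libraries. Replicate 3 of both groups stood apart from replicates 1 and 2: the 12 macrophage and monocyte markers summed to 5037 CPM and 4678 CPM there, against 989 to 2268 CPM in the other 4 libraries. Of 16075 genes that passed the filter on low counts, edgeR's quasi-likelihood test called 1 at an adjusted p under 0.05. That gene is Gm33707, whose reads in this contrast led to the choice of the region, so the call is not a test of it. A fit with the replicate number as a block called 47, although the labels state no pairing of mice, and 1209 genes had an unadjusted p under 0.05. All are bulk values, in which fewer cells of a type and less RNA per cell cannot be told apart.

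Of the 10 genes, 9 passed the filter and Tgif1-ps did not. In 4 of the 9 tested genes, Mbnl1, Gm37589, Gm33707 and Gm38326, every Ogt-KD library had a higher CPM than every control library. In the other 5 the groups overlapped, and in none did all Ogt-KD libraries lie below the controls. Over all genes tested, 7.43% had all Ogt-KD values above and 5.88% all Ogt-KD values below the control values, and edgeR called 0.00622%. Since the genes were picked with this contrast known, nothing is read from these shares. The fitted log2 fold change, written as log2 ratio where short, is of Ogt-KD libraries over controls and was above 0 for 8 of the 9 and below 0 for Rap2b.

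**Figure D1:**
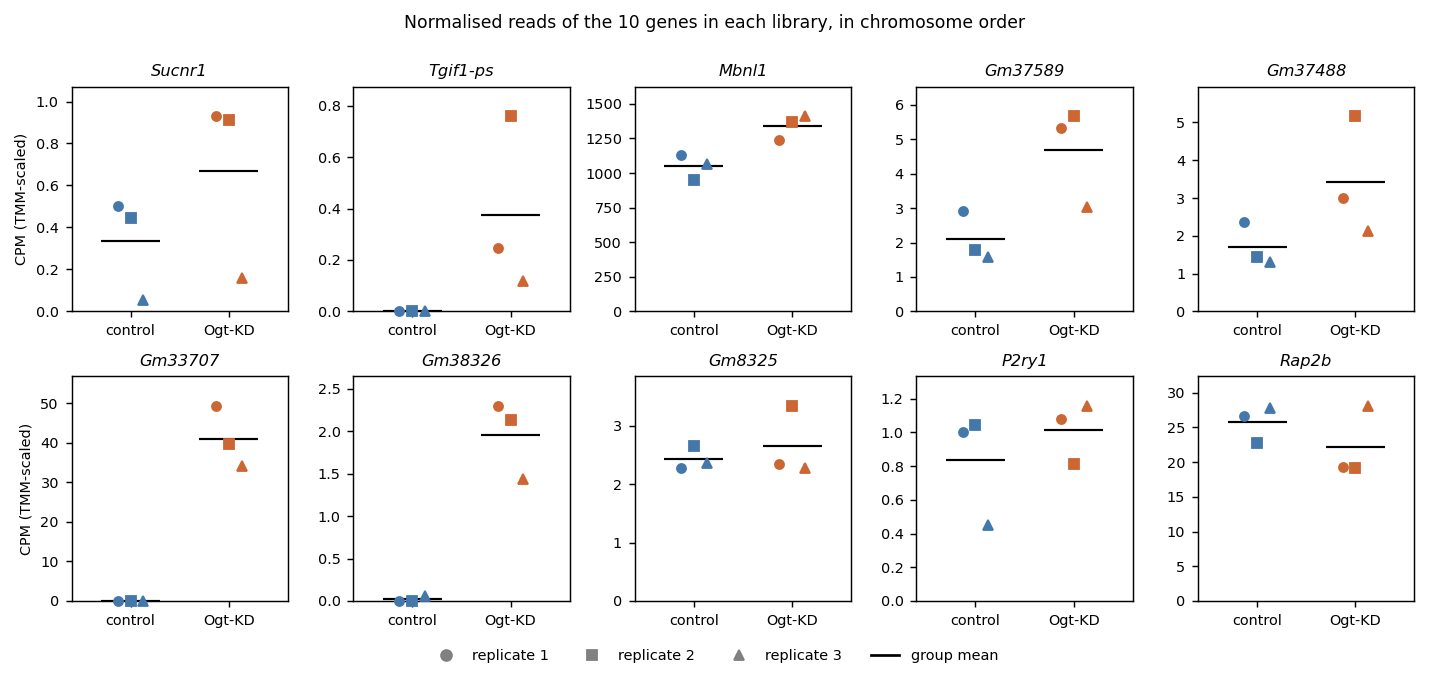
Normalised reads (CPM with TMM scaling, linear axis from 0, each panel with its own range) of the 10 genes in the 3 control and 3 Ogt-KD libraries, in chromosome order; symbols mark the replicate number and lines the group mean. Gm33707 and Gm38326 lie at or next to 0 in all controls, the groups of Mbnl1 and Gm37589 are separate at nonzero levels, and Sucnr1 is low in replicate 3 of both groups.

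Mbnl1 (chr3:60472830-60629750, plus strand, 25 transcripts in GENCODE M21) was the most highly expressed of the 10 genes in the controls, and its level was higher in every Ogt-KD library. The control libraries held 24749, 23509 and 18976 reads and the Ogt-KD libraries 25325, 26988 and 35337. Scaled for library size, these were 1130, 947 and 1069 CPM in the controls and 1241, 1368 and 1412 CPM in Ogt-KD replicates. The lowest Ogt-KD library stood above the highest control library, by a smaller step than the spread within either group.

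The mean CPM of Mbnl1 was 1049 ± 93.4 in control and 1340 ± 89.1 in Ogt-KD libraries (SD, n = 3 per group). The fitted log2 fold change was 0.35 (SE 0.12, 95% interval 0.06 to 0.64), or a ratio of means of 1.28. By length-scaled level, it had 59.6, 50.7 and 56.9 FPKM (reads scaled by gene length and library size, from the authors) in control and 65.5, 72.3 and 75.3 FPKM in Ogt-KD libraries. That placed it at ranks 863, 1018 and 925 of all rows by FPKM in the controls and at ranks 707, 630 and 662 in the Ogt-KD libraries. One count per gene does not show which of its 25 transcripts, or which of its 57 distinct exons, carried the reads. Over the 12 other settings tried, the log2 fold change of Mbnl1 ranged from 0.29 to 0.41.

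The paralogs of Mbnl1, taken from a list of 26 MBNL, CELF and partner splicing regulators, differed in their order. Mbnl3, the third family member, had 19.4 ± 0.72 CPM in the controls and 24.98 ± 1.201 CPM in the Ogt-KD libraries (SD, n = 3 per group). Its log2 fold change was 0.36 (SE 0.10), with groups that did not overlap, and it did not pass over all genes (edgeR adjusted p = 0.536). Mbnl2 had 73.7 ± 6.66 and 66.7 ± 10.02 CPM, with overlapping groups and a log2 ratio of -0.14 (SE 0.13, edgeR adjusted p = 0.912). By FPKM, Mbnl1 was the highest of the 3 paralogs in every library, with Mbnl2 between 4.99 and 6.59 FPKM and Mbnl3 between 2.11 and 2.98 FPKM.

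Of the 17 tested genes of that list other than Mbnl1, 8 lay above and 9 below a log2 ratio of 0, with a median of -0.01 against -0.005 over all genes tested. None passed in edgeR with or without the replicate block, nor in DESeq2 or limma-voom, and 1, Mbnl3, had an unadjusted p under 0.05. Hnrnpll, a regulator of the alternative exons of Ptprc in activated lymphocytes, had a log2 ratio of 0.19 (SE 0.10, edgeR adjusted p = 0.712). Ptbp2, a polypyrimidine tract-binding protein, had 0.23 (SE 0.13, edgeR adjusted p = 0.750), and in both the groups did not overlap. Zfp36l2, which destabilises messenger RNAs with AU-rich elements, had -0.62 (SE 0.36, edgeR adjusted p = 0.767), with overlapping groups.

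The 2 unclassified transcripts inside Mbnl1 lie on its strand and cover none of its annotated exon bases. Gm37589 (chr3:60535751-60539744) had 64, 44 and 28 reads in control and 109, 112 and 76 in Ogt-KD libraries. Every Ogt-KD library had more reads than every control library. After scaling, Ogt-KD replicate 3 stood only just above control replicate 1, at 3.04 against 2.92 CPM. Its log2 fold change was 1.16 (SE 0.35), from 2.09 ± 0.73 CPM in control to 4.68 ± 1.44 CPM in the Ogt-KD libraries (SD, n = 3 per group).

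Gm37488 (chr3:60604384-60607757) had 52, 36 and 23 reads in control and 61, 102 and 53 in Ogt-KD libraries. Its groups overlapped after scaling, since Ogt-KD replicate 3 fell below control replicate 1 at 2.12 against 2.37 CPM. The log2 fold change was 0.99 (SE 0.41), and 0.57 without Ogt-KD replicate 2, the library with the most reads.

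Set against the reads of the gene that contains them, the separation of these transcripts was less clear. Gm37589 had 2.59, 1.87 and 1.48 reads per 1000 Mbnl1 reads in control and 4.30, 4.15 and 2.15 in Ogt-KD libraries, so that Ogt-KD replicate 3 fell within the control range. Gm37488 had 2.10, 1.53 and 1.21 in control and 2.41, 3.78 and 1.4998 in Ogt-KD libraries. The ratio of the group means per Mbnl1 read was 1.79 for Gm37589 and 1.59 for Gm37488, with overlapping groups in both. Whether these reads come from separate transcripts or from unspliced Mbnl1 RNA was not tested.

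Gm33707 (chr3:60769887-60770455, minus strand, 569 bases, 140.1 kb beyond the end of Mbnl1) was all but absent from the controls. It had 0, 0 and 1 reads in control replicates 1, 2 and 3, and 1008, 782 and 851 reads in Ogt-KD replicates 1, 2 and 3. The 2 control libraries without a read allow up to 3 reads each. Every Ogt-KD library thus lay far above every control library, while the Ogt-KD libraries differed little among themselves, at 49.4, 39.6 and 34.0 CPM.

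Pooled over libraries and scaled, the ratio of Gm33707 reads was 2613, with a 95% exact counting interval from 468.6 to 103255 that rests on the single control read. The fitted log2 fold change was 10.91 (SE 0.46). Its size depends on how 0 reads are treated and ranged from 10.22 with limma-voom to 12.92 without replicate 3 of both groups, where no control read is left. At 85.8, 68.9 and 59.7 FPKM in the Ogt-KD libraries, Gm33707 took ranks 499, 676 and 873 of all rows. Among the 9773 processed pseudogenes of the table it ranked 35, 39 and 67 by FPKM, and between 2260 and 2315 of these had a read in an Ogt-KD library. Per length, Gm33707 therefore stood at 131%, 95.3% and 79.2% of the level of Mbnl1 in the same 3 libraries. These shares rest on gene lengths of 569 bases for Gm33707 and 18717 bases for Mbnl1, a gene of 25 transcripts. In CPM, Gm33707 stood at 49.4, 39.6 and 34.0 and Mbnl1 at 1241, 1368 and 1412 in these libraries.

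Gm38326 (chr3:60788361-60794730, plus strand, a long intergenic noncoding RNA of 3 exons and 686 bases) lies 17.9 kb from Gm33707 and showed the same contrast at a lower level. It had 0, 0 and 1 reads in control and 47, 42 and 36 reads in Ogt-KD libraries. As for Gm33707, the single control read was in replicate 3. In CPM, replicate 1 was the highest and replicate 3 the lowest Ogt-KD library for both genes.

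The Ogt-KD libraries stood at 2.30, 2.13 and 1.44 CPM for Gm38326. The ratio of scaled reads was 124, with a 95% exact counting interval from 21.8 to 4924, and the fitted log2 fold change was 6.51 (SE 0.74). It ranged from 5.82 with limma-voom to 8.59 without replicate 3 of both groups. Per length, Gm33707 was 25.9, 22.4 and 28.5 times as high as Gm38326 in Ogt-KD replicates 1, 2 and 3. These ratios rest on 47, 42 and 36 reads of Gm38326, and both genes were picked for this contrast.

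The pattern of these 2 genes was searched for over the whole table. At least 10 reads in every library of one group, with at most 1 read in every library of the other, were found in 2 of 28456 rows with a read (0.00703%). Both rows are the genes just described, and both were higher in Ogt-KD libraries. No row showed the reverse. The count stayed at 2 with a minimum of 20 reads, and both genes were among the 2 to 4 rows found when any 1 library was left out. The rule follows the pattern of these 2 genes, which were picked for this contrast, so their own passing is not a test. The search describes only how many other rows share the pattern. With 0 reads required in every library of the other group no row was left, since each gene has 1 read in control replicate 3.

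**Figure D2:**
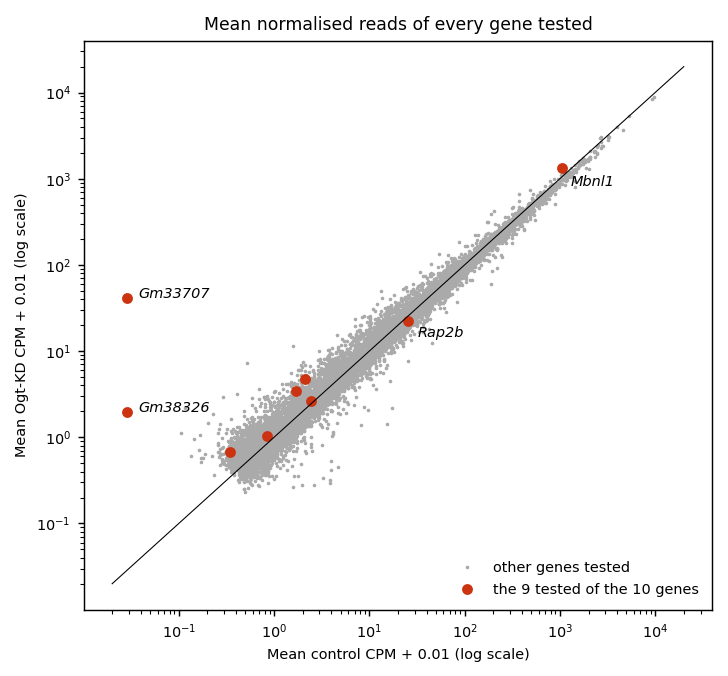
Mean CPM plus 0.01 in control (horizontal) and Ogt-KD libraries (vertical) for the 16075 genes tested, both on log axes, with the line of equal level; large points are the 9 tested genes of the region. Gm33707 and Gm38326 stand at the left edge, away from the band of other genes, while Mbnl1 lies in the band near its upper end.

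Eno1 and its other copies were read for comparison with Gm33707. Eno1 had 11953, 13152 and 10428 reads in control and 10363, 9682 and 13543 in Ogt-KD libraries. Its level was 554 ± 29.8 CPM in the controls and 513 ± 25.6 CPM in the Ogt-KD libraries (SD, n = 3 per group), with a log2 ratio of -0.11 (SE 0.10, 95% interval -0.35 to 0.12, edgeR adjusted p = 0.908). By FPKM, Gm33707 reached 92.0%, 76.4% and 59.4% of the Eno1 level in the 3 Ogt-KD libraries, and in the controls 1 read in all. These shares depend on the gene lengths by which the reads are divided. In CPM, Gm33707 stood at 49.4, 39.6 and 34.0 and Eno1 at 508, 491 and 541 in Ogt-KD replicates 1, 2 and 3.

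Of the 20 genes whose transcripts aligned to Gm33707, 19 are rows of the table, and 15 of those are pseudogenes. Reads were found for 7 of these 15, and none of the 19 had at least 10 reads in every library of one group with at most 1 in every library of the other. None of the 6 related genes that passed the filter was called by edgeR, DESeq2 or limma-voom or had an unadjusted p under 0.05. Gm4735, as similar to Gm33707 as Eno1 is (89.5% identity), had 82, 97 and 114 reads in control and 74, 82 and 94 in Ogt-KD libraries. Gm5855, which is also on chromosome 3, had 2 reads in each control and 5, 3 and 9 in the Ogt-KD libraries. Gm16103 had 3, 1 and 0 reads in control and 5, 4 and 7 in Ogt-KD libraries. In Gm5855 and Gm16103 every Ogt-KD library had more reads than every control library, at counts small beside the 782 to 1008 reads of Gm33707.

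**Figure D3:**
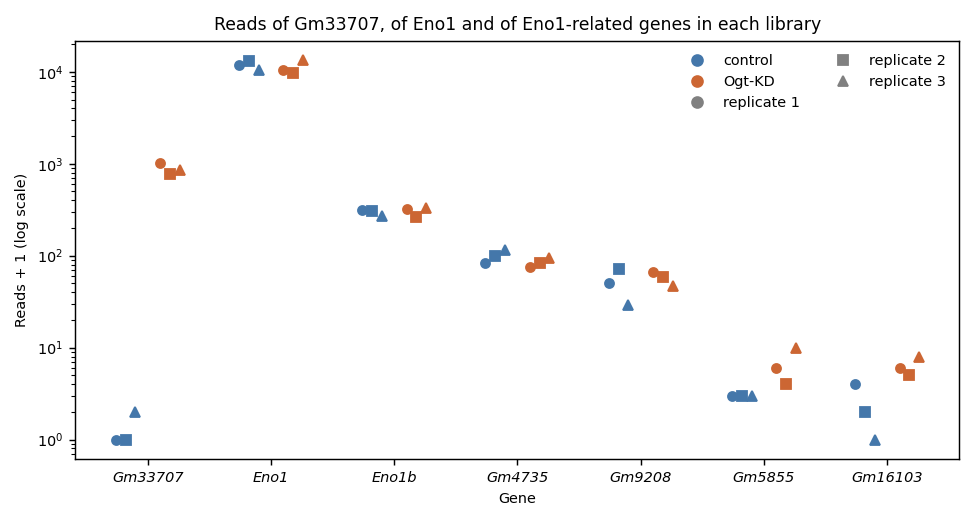
Reads plus 1 (log axis) of Gm33707, of Eno1 and of 5 Eno1-related genes in each control and Ogt-KD library; the shape marks the replicate. The groups of Gm33707 lie farther apart than those of any other gene shown. Those of Eno1, Eno1b, Gm4735 and Gm9208 overlap, and those of Gm5855 and Gm16103 do not, at no more than 9 reads per library.

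Gm8325 (chr3:60877014-60877587, plus strand), 106.6 kb from Gm33707 on the side away from Mbnl1, had reads in both groups. It had 50, 66 and 42 reads in control and 48, 66 and 57 in Ogt-KD libraries, and the groups overlapped. Its log2 fold change was 0.12 (SE 0.25, 95% interval -0.46 to 0.70) and changed sign without Ogt-KD replicate 2, at -0.08. Ube2v1, its parent, had 29, 54 and 24 reads in control and 52, 55 and 28 in Ogt-KD libraries, which overlapped too. By FPKM, Gm8325 stood between 4.86 and 7.13 and Ube2v1 between 0.411 and 1.01. The shared sequence and the gene lengths used make this comparison uncertain.

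Tgif1-ps (chr3:60342358-60343093, minus strand) lies 426.8 kb from Gm33707 on the far side of Mbnl1. It had 0 reads in all 3 controls, which allows up to 3 reads in the group, and 5, 15 and 3 reads in Ogt-KD libraries. Against 3 reads over the control group, the scaled total was at least 7.59-fold higher in the Ogt-KD libraries. With the counting error of both groups, the 95% exact interval of the ratio starts at 5.69. No fit was made for so few reads. The Ogt-KD library with the most reads was replicate 2, which was not so in Gm33707 and Gm38326. Its parent Tgif1 had 37.9 ± 5.21 CPM in the controls and 36.3 ± 3.68 CPM in the Ogt-KD libraries (SD, n = 3 per group), with a log2 ratio of -0.06 (SE 0.13, edgeR adjusted p = 0.976). At least 3 reads in every library of one group and 0 in the other were found in 4 of 54532 rows. Of these, Tgif1-ps was the 1 row on chromosome 3. It was picked for this contrast and just meets the cut with 3 reads in Ogt-KD replicate 3, so its place among them is not a test. With a minimum of 5 reads no row was left.

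Among 8 tested genes of TGIF factors and their SMAD partners, 2 lay above and 6 below 0, with a median log2 fold change of -0.07 against -0.005 over all genes. None passed in edgeR, DESeq2 or limma-voom, and 0 had an unadjusted p under 0.05. Smad7, an inhibitor of TGF-beta receptor signalling, had -0.36 (SE 0.16, edgeR adjusted p = 0.669). The corepressors Ski and Skil had -0.19 (SE 0.10, edgeR adjusted p = 0.698) and -0.17 (SE 0.14, edgeR adjusted p = 0.884), and only in Ski did the groups not overlap among the genes named here. Smad4, the common partner, had -0.07 (SE 0.08, edgeR adjusted p = 0.941).

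The cell-surface receptors of the region were expressed at low levels. P2ry1 (chr3:61002795-61008982, plus strand), a receptor for ADP known from platelet activation, had 22, 26 and 8 reads in control and 22, 16 and 29 in Ogt-KD libraries. The groups overlapped, with the lowest value in control replicate 3. Its log2 fold change was 0.27 (SE 0.39) and fell to -0.12 without replicate 3 of both groups, so that replicate decided the sign. Gm37035, the gene that overlaps P2ry1 on the other strand by 992 bases, had at most 1 read in any library. With the strand setting not given, that count is uncertain over the shared bases. Platelet and megakaryocyte markers summed to 112 to 125 CPM in the controls and 118 to 148 CPM in the Ogt-KD libraries. Of these 12 markers, 8 had reads in every library, Gp1bb was at 0 in all, and their part in the P2ry1 reads was not tested.

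Sucnr1 (chr3:60081869-60087566, plus strand) encodes the receptor through which extracellular succinate signals, and lies 682.3 kb from Gm33707. It had 11, 11 and 1 reads in control and 19, 18 and 4 reads in Ogt-KD libraries. Replicate 3 was low in both groups, and the groups overlapped because of it. The log2 fold change was 0.91 (SE 0.81, 95% interval -1.0005 to 2.81) with all libraries and 0.96 (SE 0.40) without replicate 3 of both groups.

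The summed level of the 10 dendritic cell markers had the same order of replicates as Sucnr1 in that replicate 3 was lowest in each group. It was 995, 1020 and 471 CPM in the controls and 1655, 2366 and 845 CPM in the Ogt-KD libraries. All 10 markers had reads in every library and a log2 fold change above 0 (median 1.095). None was called by edgeR, DESeq2 or limma-voom, 3 had an unadjusted p under 0.05, and 4 passed with the replicate block. Their part in the Sucnr1 reads was not tested. Sucnr1 has been described in dendritic cells and macrophages. The summed macrophage and monocyte markers had the opposite order, being highest in replicate 3 of each group, where Sucnr1 was lowest. The control sum there was 5037 CPM and the Ogt-KD sum 4678 CPM. No other library exceeded 2268 CPM. The part of these markers in the Sucnr1 reads was not tested either.

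The purinergic list held 15 tested genes other than P2ry1, with 8 above and 7 below 0, a median log2 fold change of 0.13 and none called by edgeR, DESeq2 or limma-voom. One of them, Adora2a, had an unadjusted p under 0.05. Adora2a, the adenosine receptor that restrains T cells, had 44.0 ± 2.93 CPM in the controls and 54.7 ± 4.46 CPM in the Ogt-KD libraries (SD, n = 3 per group). Its groups did not overlap (log2 ratio 0.31, SE 0.10, edgeR adjusted p = 0.583). Nt5e, the ectonucleotidase CD73 that makes adenosine, had a log2 ratio of 0.29 (SE 0.13, edgeR adjusted p = 0.668). The ATP-gated channel gene P2rx4 had -0.24 (SE 0.14, edgeR adjusted p = 0.779).

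A cluster of receptors related to P2ry1 lies on the same chromosome, beyond the 1 Mb limit on the side of Sucnr1. Gpr171, 1668.1 kb away, had a log2 ratio of -0.24 (SE 0.14, edgeR adjusted p = 0.757). P2ry14, P2ry13 and P2ry12 had -0.11 (SE 0.30), -0.63 (SE 0.52) and -0.72 (SE 0.66), with edgeR adjusted p of 0.981, 0.883 and 0.915. In all 4 the groups overlapped. P2ry12 and P2ry13 were highest in replicate 3 of each group, with 12.9 and 8.79 CPM for P2ry12 against 2.18 to 5.48 CPM in the other 4 libraries. The macrophage and monocyte markers had the same high replicates, and their part in these values was not tested.

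Of 14 tested genes of succinate metabolism, 5 lay above and 9 below 0, with a median log2 fold change of -0.01. None passed in edgeR, DESeq2 or limma-voom, and 0 had an unadjusted p under 0.05. Slc25a10, the mitochondrial carrier that exchanges dicarboxylates, had 13.9 ± 2.72 CPM in the controls and 17.2 ± 0.205 CPM in the Ogt-KD libraries (SD, n = 3 per group; log2 fold change 0.31, SE 0.17, edgeR adjusted p = 0.732). The succinyl-CoA ligase subunits Suclg1 and Suclg2 had -0.20 (SE 0.12) and -0.19 (SE 0.14), and the succinate dehydrogenase subunit Sdhc had -0.12 (SE 0.17). Their edgeR adjusted p were 0.790, 0.864 and 0.956.

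Rap2b (chr3:61361638-61368430, plus strand), 591.2 kb from Gm33707, was the 1 gene of the 9 with a log2 fold change below 0. It had 583, 566 and 493 reads in control and 393, 379 and 704 in Ogt-KD libraries. In CPM these were 26.6, 22.8 and 27.8 against 19.3, 19.2 and 28.1, so that Ogt-KD replicates 1 and 2 lay below and replicate 3 above all controls. The log2 fold change was -0.21 (SE 0.18) and ranged from -0.42 without Ogt-KD replicate 3 to -0.11 without Ogt-KD replicate 1. Its antisense neighbour B430305J03Rik, which overlaps 3702 of its bases, had no read in any library. Since the strand setting of the counting is not given, this does not show that antisense RNA was absent.

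The other RAP2 genes showed small differences with overlapping groups. Rap2a had a log2 ratio of 0.08 (SE 0.13, edgeR adjusted p = 0.970) and Rap2c -0.06 (SE 0.17, edgeR adjusted p = 0.981). By FPKM, Rap2c was the highest of the 3 in every library, at 21.02 to 30.5 FPKM, with Rap2a at 3.27 to 4.199 and Rap2b at 2.80 to 4.13 FPKM.

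Among the 26 tested genes of the RAP GTPases, their regulators and effectors other than Rap2b, 12 lay above and 14 below 0, with a median log2 fold change of -0.02 and none called by edgeR or limma-voom. Unadjusted p were under 0.05 for 2 of them, Rasgrp2 and Sipa1l2. Rasgrp2, a calcium- and diacylglycerol-regulated exchange factor for RAP1, had 539 ± 7.09 CPM in the controls and 417 ± 14.5 CPM in the Ogt-KD libraries (SD, n = 3 per group). Its log2 fold change was -0.37 (SE 0.09), with groups that did not overlap and an edgeR adjusted p of 0.512, and DESeq2 called it. Sipa1l2, a RAP GTPase-activating protein, had 23.1 ± 0.411 and 17.1 ± 0.548 CPM (log2 ratio -0.43, SE 0.10, edgeR adjusted p = 0.512). Sipa1l1 had -0.25 (SE 0.11, edgeR adjusted p = 0.668) and the exchange factor Rapgef5 0.45 (SE 0.21, edgeR adjusted p = 0.685).

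By position, the largest log2 fold changes of the 9 tested genes were those of Gm33707 and Gm38326. On the other side of Mbnl1, the untested Tgif1-ps had 0 reads in the controls and 5, 15 and 3 in the Ogt-KD libraries. Sucnr1 had a log2 ratio of 0.91 (SE 0.81), with overlapping groups. Going from Mbnl1 towards Rap2b, the log2 fold changes were 0.35 for Mbnl1, 10.91 for Gm33707, 6.51 for Gm38326, 0.12 for Gm8325, 0.27 for P2ry1 and -0.21 for Rap2b. Gm33707 lies on the minus strand and Gm38326 on the plus strand, as annotated, and these counts do not show which strand the reads came from. Within 0.5 Mb of Gm33707 lie 11 rows, of which 9 had a read.

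Of the 17 rows within 1 Mb that are not among the 10 genes, 4 had a read and 1, Gm37696, passed the filter. Gm37696, an antisense transcript that overlaps 260 bases of Rap2b, had 20, 26 and 13 reads in control and 21, 19 and 17 in Ogt-KD libraries (log2 ratio -0.03, SE 0.32, edgeR adjusted p = 0.997). None of these rows had the pattern of Gm33707. In the 2 Mb window none of the 10 tested rows outside the 10 genes was called by edgeR, DESeq2 or limma-voom, and 1, Gm5538, had an unadjusted p under 0.05. Gm5538 lies 1017.6 kb away on the side of Sucnr1. It had 6, 7 and 4 reads in control and 10, 13 and 17 in Ogt-KD libraries, without overlap (log2 ratio 1.202, SE 0.37, edgeR adjusted p = 0.556).

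Farther out the values spread around 0. The median log2 fold change was -0.06 for 25 genes between 1 and 5 Mb from Gm33707 and 0.03 for 58 genes between 5 and 10 Mb. It was -0.02 for 710 genes farther along chromosome 3 and -0.005 for 15272 genes on other chromosomes. All Ogt-KD values lay above the control values in 8% of the genes at 1 to 5 Mb, 6.90% of those at 5 to 10 Mb, 9.01% of those farther along chromosome 3 and 7.34% of those on other chromosomes. Lhfp, named after its value was seen, had the next largest log2 fold change within 10 Mb, 4.28 (SE 1.24, edgeR adjusted p = 0.544), with 0.106 ± 0.0580 CPM in the controls and 2.17 ± 2.86 CPM in the Ogt-KD libraries (SD, n = 3 per group).

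**Figure D4:**
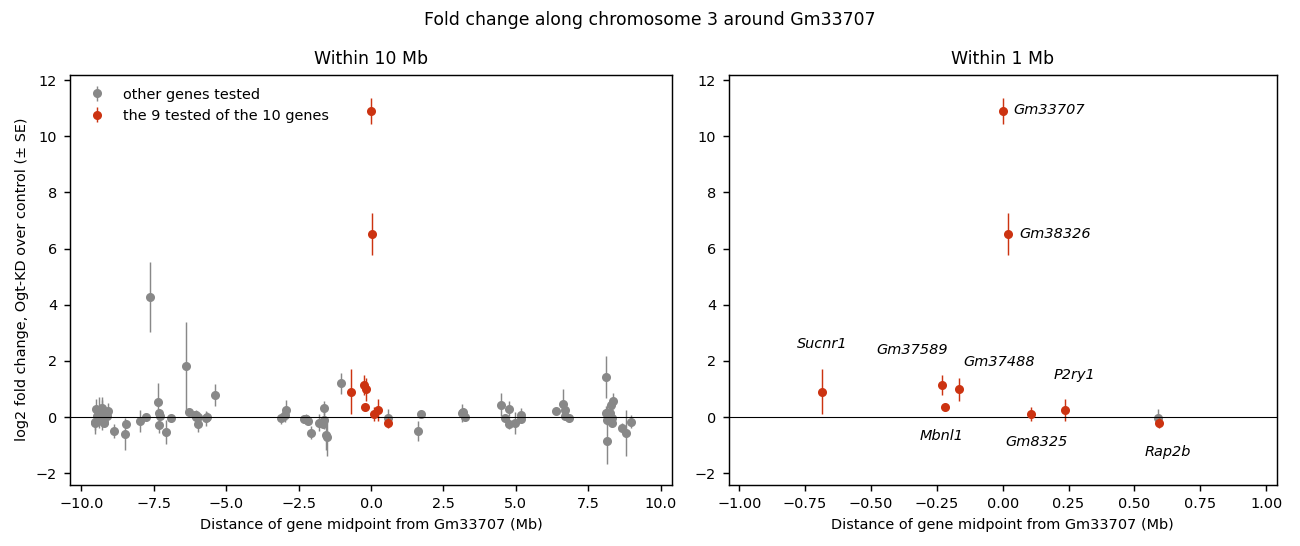
Log2 fold change, Ogt-KD against control (points, with SE bars) against the signed distance of the gene's midpoint from Gm33707 in Mb, for the genes tested within 10 Mb (left) and within 1 Mb (right); the 9 tested genes of the region are in red. Gm33707 and Gm38326 stand at 10.91 and 6.51, and the other 7 lie between -0.21 and 1.16.

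The genes most like Mbnl1 across libraries were found by Pearson's correlation of log2 CPM over the 6 libraries, among 8267 genes with an average log2 CPM of at least 4. They were Bcl2a1d (r = 0.984), Wdr45 (0.981), Uba6 (0.967), Samsn1 (0.958) and Fabp5 (0.952). Bcl2a1d, an antiapoptotic BCL2 family gene, had 25.2, 20.5 and 24.9 CPM in the controls and 27.6, 34.5 and 34.5 CPM in the Ogt-KD libraries. Fabp5, a fatty acid-binding protein gene also on chromosome 3, had 25.3, 22.5 and 25.97 CPM against 33.0, 42.0 and 37.4 CPM. The 6 points share their libraries and the contrast of the groups, and the genes were picked as the highest of many, so these values describe likeness alone.

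RefSeq promoters of GRCm38.p6, which run from upstream of the transcription start to just after it, were found for 5 of the 10 genes, with 6 promoters in all. That of Gm38326 is shown because the gene had reads in every Ogt-KD library and next to none in the controls (chr3:60788111-60788410, plus strand). It holds 6 CpG and 46.3% GC, against a median of 7 CpG over 32851 promoters. On either strand it had no match of the TATA box (TATAAA) or the CCAAT box. It also had none of the GC box (GGGCGG). The RUNX core (TGTGGT) was not found in it either.
Gm38326 promoter: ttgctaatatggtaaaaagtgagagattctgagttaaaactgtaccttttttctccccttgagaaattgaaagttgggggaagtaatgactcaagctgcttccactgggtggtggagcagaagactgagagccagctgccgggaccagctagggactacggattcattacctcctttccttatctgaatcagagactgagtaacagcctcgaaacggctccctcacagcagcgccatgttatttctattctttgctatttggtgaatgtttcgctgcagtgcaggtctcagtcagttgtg

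Mbnl1 has an upstream and a downstream start with unlike promoters, shown because the gene counts sum over both. The upstream one (chr3:60472580-60472879, plus strand) holds 2 CpG and 39.3% GC. Capitals mark CCAAT, found 2 times, and TATAAA, found 2 times as overlapping matches on the opposite strands. The downstream one (chr3:60500929-60501228, plus strand) holds 41 CpG and 75% GC, more CpG than 96.5% of promoters, with 4 matches of GGGCGG in capitals, some overlapping each other or on the opposite strand. Of all 32851 promoters, 13.6% hold the TATA box and 37.4% the CCAAT box. The GC box is in 35.7% and the RUNX core in 16.8% of them.
Mbnl1 upstream promoter: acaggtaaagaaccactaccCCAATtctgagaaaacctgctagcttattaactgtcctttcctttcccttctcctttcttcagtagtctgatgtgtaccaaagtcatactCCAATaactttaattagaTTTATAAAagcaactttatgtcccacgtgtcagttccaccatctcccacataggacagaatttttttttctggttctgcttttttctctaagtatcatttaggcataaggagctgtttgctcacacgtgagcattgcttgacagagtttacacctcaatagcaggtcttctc
Mbnl1 downstream promoter: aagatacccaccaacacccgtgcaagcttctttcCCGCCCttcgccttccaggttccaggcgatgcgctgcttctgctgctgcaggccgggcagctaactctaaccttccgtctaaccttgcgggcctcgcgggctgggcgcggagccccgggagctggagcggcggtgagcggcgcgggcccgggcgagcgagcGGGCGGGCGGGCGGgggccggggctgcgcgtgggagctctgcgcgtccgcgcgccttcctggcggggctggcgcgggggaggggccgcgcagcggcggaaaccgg

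The promoters of P2ry1 and Rap2b were rich in CpG, with 25 and 27, and held 2 and 4 matches of GGGCGG. The promoter of Sucnr1 held 3 CpG and none of the 4 motifs. A match is a description of letters and was not tested as a binding site.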

How the data were processed

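CD4+ T cell RNA from 3 control and 3 Ogt-KD mice was prepared with TRIzol and an Illumina TruSeq kit, per the labels' protocols. In the submitters' processing notes, TopHat2 2.0.9, Bowtie2 2.0.6 and the build mm9 are named. No counting tool or strand setting is given in the sources used here. Per the file headers, the deposited values are whole-number read counts per Ensembl gene. The table also has the authors' FPKM, used here to compare genes per length, and the authors' gene length in bases, which was not used in any test. The authors' mean normalised signal per group, log2 fold change and p-values are deposited in the same table and were not used. All 10 genes have the same coordinates as in GENCODE M21, as do 53499 of the 54409 matched identifiers, so positions are on GRCm38.

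Counts were fitted with the edgeR 4.0.16 quasi-likelihood F test (filterByExpr, TMM, robust dispersion) in R 4.3.3, with Benjamini-Hochberg adjustment over all 16075 genes tested and a threshold of 0.05. CPM are counts scaled to library size by TMM. The reads carry no molecular identifiers, so counting intervals (exact, 95%) and the limit of 3 counts that a count of 0 allows cover counting error only. The 10 genes, the gene lists and the tests were chosen with earlier results of these data known. Named genes were the 10 genes, tested or on-off rows within 1 Mb, up to 4 genes of each list with the smallest p plus paralogs and parents, and the 5 genes most like Mbnl1. Gm4735, Gm5855, Gm16103, Eno1b, Gm9208, Gm5538, Gm37035, B430305J03Rik and Lhfp were named after their values were seen.

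Samples of a group are labelled as separate mice. Deviations of same-numbered libraries from their group means correlated across genes at 0.109, 0.346 and 0.523. Among libraries that do not share a number, Ogt-KD replicate 1 and control replicate 2 reached 0.267, and with a pseudocount of 0.5 on the CPM the first same-numbered value was 0.0937. The labels state no pairing, so the fit with the replicate number as a block is an alternative, as are DESeq2 1.42.0, limma-voom (limma 3.58.1), DESeq2 size factors, no filter and leaving out libraries.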

Additional observations from a re-analysis of the deposited data

How the results depend on the processing

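The number of genes called depended on the method, while Gm33707 and Gm38326 were higher in Ogt-KD libraries under all 12 other settings. The count of 1 gene (1 higher, 0 lower) was kept with DESeq2 size factors and with limma-voom. It was 126 (92 higher, 34 lower) with DESeq2, which also called 1 gene of the lists, Rasgrp2, and 4 (4 higher) without a filter. It was 35 (13 higher, 22 lower) without replicate 3 of both groups. Leaving out 1 library gave 1 to 2 calls, all higher, with 2 without Ogt-KD replicate 2 or Ogt-KD replicate 3. With the replicate number as a block, a pairing that the labels do not state, 47 genes were called (32 higher, 15 lower), none of them a gene of the lists. The rows with at least 10 reads in every library of one group and at most 1 in every library of the other numbered 2. They numbered 6 with a minimum of 5 reads, 0 with 0 reads required in the other group, and 2 to 4 when 1 library was left out. Within 0.5 Mb, 0 other rows passed the filter, so none could be called there. Within 1 Mb, where 1 other row passed, none was called under any setting. None of the 10 that passed within 2 Mb was called under the settings run for that window. The cause of these differences was not tested.

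Among the 10 genes, the sign held in 12 of 12 settings for Mbnl1, Gm37589 (0.97 to 1.47), Gm37488 (0.57 to 1.31), Sucnr1 (0.44 to 1.39) and Rap2b, in 11 for Gm8325 and in 10 for P2ry1. Depth limits P2ry1, Sucnr1 and Tgif1-ps most, which had under 30 reads in every library.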

Other observations

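With the minimum lowered to 5 reads in every library of one group and at most 1 in every library of the other, 4 rows joined Gm33707 and Gm38326, named here after their values were seen. Gm4779 on the X chromosome, 105.7 kb from Ogt, had 0, 0 and 1 reads in control and 13, 30 and 8 in Ogt-KD libraries. Slc38a5, a glutamine and glycine transporter gene elsewhere on the X chromosome, had 1, 1 and 0 reads in control and 6, 8 and 13 in Ogt-KD libraries. Gm6653 on chromosome 10 had 0, 1 and 1 reads against 19, 5 and 12. Gm47884 on chromosome 13 was the 1 row in the other direction, with 8, 7 and 8 reads in control and 1, 0 and 1 in Ogt-KD libraries.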
